A study of Mus musculus with 2 samples.

Results

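Steroid hormone receptors and their target genes were followed in tumors of RM-1, a mouse prostate cancer cell line that the study used because it resists enzalutamide (ENZ), an antiandrogen drug, without prior selection. The members were 8 genes given by name: 3 nuclear receptor genes (Nr3c1, Nr3c2 and Pgr), 3 widely induced target genes (Fkbp5, Tsc22d3 and Per1) and 2 androgen targets of the prostate (Pbsn and Tmprss2). They are 8 of the 32285 genes listed in each library, and all 8 are accounted for here.

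RM-1 cells were injected into the prostate of wild-type C57BL/6 mice, and one tumor treated with vehicle (control) and one treated with ENZ were profiled with 10x Genomics 3′ single-cell RNA-seq, which counts each captured mRNA molecule once through a unique molecular identifier (UMI). The labels give no dose, treatment length, hormone status or age. The study obtained the tissue from a pair of mice, so each condition was 1 library of 1 mouse. No test between conditions was possible, cells are not replicates, and every interval below covers counting error only. Immune cells were enriched during sorting, so the proportions of classes are not those of the tumor.

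Glucocorticoids enter cells, bind the receptor encoded by Nr3c1 and release it from a complex of heat shock proteins and FKBP-type cochaperones, after which it binds DNA as a dimer. The receptors encoded by Nr3c2 (mineralocorticoid) and Pgr (progesterone) belong to the same family and read closely related DNA elements, as does the receptor for androgens. Fkbp5, Tsc22d3 and Per1 are induced by glucocorticoids in most tissues, and Fkbp5 is also a classical androgen target in the prostate, so its level does not tell which hormone acted.

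Some of these target genes carry their steroid response elements far from the start site, and the start-site windows are shown here because they put the members' sequence beside their measurements. RefSeq windows (build GRCm38.p6) of the 250 bases before the start were matched for 7 of 8 members, in 10 windows. The full palindromic element, the half-site AGAACA followed after any 3 bases by its reverse complement TGTTCT, was found in 0 of these 10 windows and in 3 of 32851 windows of all genes (0.00913%). The half-site alone, searched on both strands, occurred in 2 windows of the members against 16.1% of all windows. The E-box CACGTG, the element of the circadian factors, occurred in 2 of 10 against 6.02% of all windows. The Fkbp5 window (chr17:28486150-28486399, minus strand, with no annotated exon base) held 1 E-box, in capitals, 169 bases before the start. The 30-base stretches that follow it show, in capitals, the E-box of Per1 (chr11:69098771-69098800, plus strand, 166 bases before the start), a half-site of Tsc22d3 (chrX:140600690-140600719, minus strand, 185 bases before the start, read as TGTTCT) and a half-site of Pbsn (chrX:77853578-77853607, minus strand, 95 bases before the RefSeq start). The Per1 and Tsc22d3 stretches held no exon base of GENCODE M21, whereas all 30 bases of the Pbsn stretch lie in an annotated exon, since that annotation starts the gene further upstream. The Fkbp5 window lies inside the annotated span of the gene.
Fkbp5: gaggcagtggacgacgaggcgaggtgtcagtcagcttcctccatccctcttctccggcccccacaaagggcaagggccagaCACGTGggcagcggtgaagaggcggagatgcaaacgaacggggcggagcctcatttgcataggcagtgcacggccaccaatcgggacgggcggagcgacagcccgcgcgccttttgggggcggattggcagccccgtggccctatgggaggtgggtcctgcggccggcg
Per1: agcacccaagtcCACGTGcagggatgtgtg
Tsc22d3: ccgcattcgacaTGTTCTaagttctgagac
Pbsn: caactgggatgcAGAACActgctcacgcca
These matches are descriptions of the letters and not binding sites.

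Of 2438568 control and 2239744 ENZ barcodes listed, 12253 and 10271 passed the minimum of 1000 UMIs and the limit of 20% mitochondrial UMIs, with medians of 6376 and 8127 UMIs. The libraries shared 39 barcode sequences among these. Cancer cells were barcodes with at most 1 UMI of Ptprc (the leukocyte antigen CD45) and at least 5 UMIs summed over Cacna2d1, Rbfox2, Kif21a and Rhox5. This gate also took 134 of the 181 barcodes (74.0%) of a cluster led by Col1a2, Bgn and Dcn, which were moved out of the cancer cells, leaving 3940 control and 4401 ENZ cancer cells with median depths of 21074 and 22191 UMIs. Fibroblasts were 70 and 68 barcodes of that cluster with Dcn. Immune classes were taken from clusters by markers and comprised 6369 control and 4604 ENZ barcodes in 8 classes.

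The epithelial label of the cancer cells held for keratins: Krt8 stood at 439 CPM (UMIs of a gene per 1000000 UMIs of a class) in control and 511 CPM in ENZ cancer cells, against 17.6 and 28.6 CPM in immune cells. The prostate secretory label did not. The 6 secretory markers other than Pbsn summed to 0.29 CPM in control and 0.34 CPM in ENZ cancer cells, with Sbp and Defb50 at 0 in both and Tgm4 the most abundant.

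Among the members, Pbsn was absent from cancer cells and Tmprss2 and Pgr were close to absent. Probasin (Pbsn), a secreted protein of the mouse prostate that depends on androgens, had 0 UMIs in 99858101 control and 113445925 ENZ UMIs of cancer cells, and a single UMI in any class, in a control T cell. The floor of 3 UMIs is 0.0300 CPM for control and 0.0264 CPM for ENZ cancer cells, and the exact upper limits at 0 UMIs were 0.0369 and 0.0325 CPM. Tmprss2, a membrane serine protease of prostate epithelium, had 5 control and 2 ENZ UMIs (0.0501 and 0.0176 CPM), no higher than the immune cells with their 6 and 7 UMIs (0.183 and 0.306 CPM). Pgr had 8 control and 17 ENZ UMIs in cancer cells (0.0801 and 0.150 CPM) and 1 UMI over all other classes. None of these 3 genes reached the 50 UMIs over both libraries that a ratio required.

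A list of 23 androgen targets held further genes that were not detected. Sbp was at 0 UMIs in the cancer cells of both libraries, and so was Hoxb13, a prostate lineage factor on the coregulator list. Of the 23 targets, 13 had enough UMIs for a ratio in cancer cells and 10 did not. In those 13, the median log2 ratio of ENZ over control was 0.24, with 9 above and 4 below no change. At a limit of 1.5-fold 0 were higher and 1 lower, beside 2.2% and 5.44% of all genes in cancer cells. The highest ratios were those of Pmepa1, a regulator of TGF-beta signalling (1.30, 95% interval 1.25 to 1.35), Camkk2, a kinase upstream of AMPK (1.26, 1.19 to 1.35), and Zbtb16 (1.24, 0.929 to 1.66). The lowest were Steap4, a metalloreductase with 42 and 27 UMIs (0.566, 0.335 to 0.939), Tgm4 (0.782, 0.432 to 1.41) and Homer2 (0.919, 0.598 to 1.42).

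The other 5 members were detected in cancer cells of both libraries. In these cells Nr3c1 stood at 66.2 CPM (95% Poisson interval 64.6 to 67.8) in control and 70.3 CPM (68.8 to 71.9) in ENZ. Nr3c2 stood at 27.1 CPM (26.1 to 28.1) and 22.4 CPM (21.6 to 23.3). The first receptor was thus slightly higher and the second lower in the ENZ library, at ratios of 1.06 (1.03 to 1.10) and 0.828 (0.784 to 0.874). Fkbp5, the cochaperone that lowers hormone binding of the receptor complex, stood at 162 CPM (160 to 165) in control and 200 CPM (197 to 202) in ENZ, a ratio of 1.23 (1.21 to 1.26). Per1, a repressor of the circadian clock, stood at 43.0 and 49.5 CPM, a ratio of 1.15 (1.10 to 1.197). Tsc22d3, which encodes the anti-inflammatory protein GILZ, stood at 20.4 and 22.0 CPM, a ratio of 1.08 (1.02 to 1.14).

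A change of 1.5-fold was used to call a gene higher or lower. Over all 16628 genes with at least 50 UMIs in cancer cells, 2.2% were called higher and 5.44% lower, and 0 of the 5 measured members were called in either direction. The median gene did not move (log2 ratio -0.0034). In this distribution 1667 genes had a higher ratio than Fkbp5 and 3306 a higher ratio than Per1.

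Thinned to 1000 UMIs per cell, 16.4% of control (15.3% to 17.6%, exact Clopper-Pearson) and 19.4% of ENZ cancer cells (18.2% to 20.6%) held a Fkbp5 UMI; no cell was too shallow. Neutrophils held one in 3.58% and 5.02% of cells at the same thinned depth, with unthinned medians of 1978.5 and 2066.5 UMIs. For Nr3c2, 2.82% and 2.32% of cancer cells held a UMI against 0.430% and 0% of neutrophils, where the floor of 3 in 518 cells is 0.579% and not an exact limit. Tsc22d3 went the other way, with 2.16% and 2.20% of cancer cells against 11.8% and 14.7% of neutrophils. Without thinning, the shares in cancer cells ranged higher with their depth and were not used for order.

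**Figure D1:**
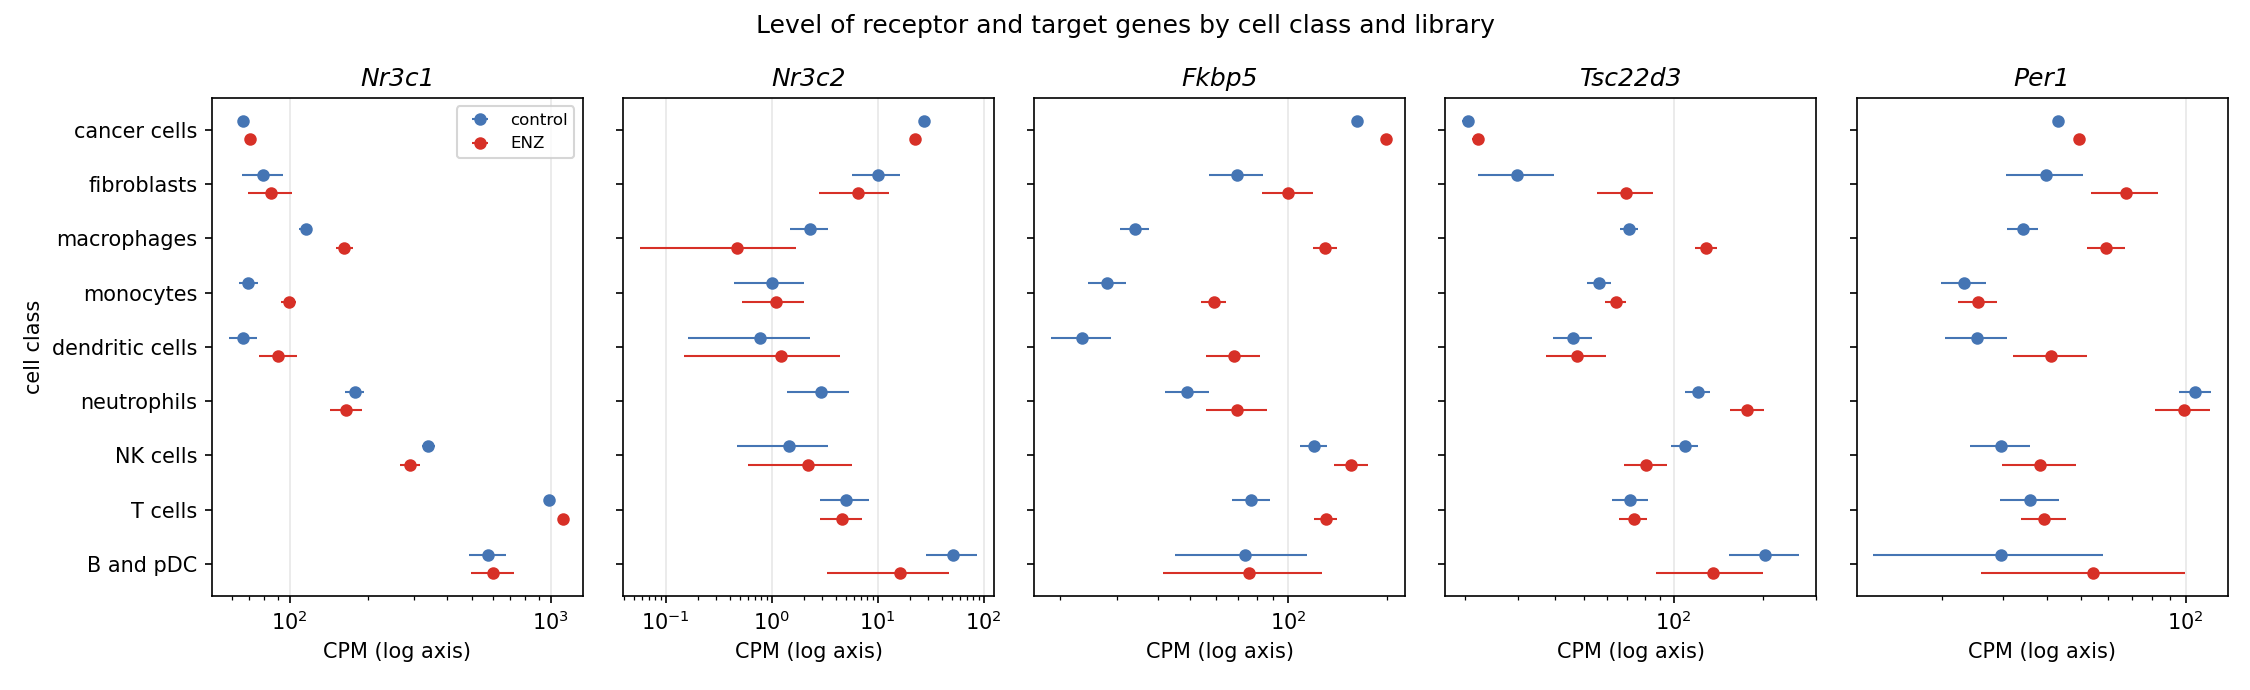
Level of 5 members (CPM of summed UMIs, log axis) in 9 cell classes of the control (blue) and ENZ (red) libraries, 1 library each, with exact Poisson 95% intervals for counting error as lines; pDC, plasmacytoid dendritic cells; classes at 0 have no point. Nr3c1 is highest in T cells, Nr3c2 in cancer cells and the B and pDC cluster, Fkbp5 in cancer cells and Per1 in neutrophils.

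Cancer cells fell into 6 clusters that differed in their receptor levels. The cluster led by Pcdh9 and Adgrl3, neural adhesion genes, held 1269 control and 1353 ENZ cells. Its Nr3c1 level was 94.1 CPM in control and 95.5 CPM in ENZ, against 52.8 to 70.8 CPM in the dividing (Top2a), keratin-rich (Krt19) and Id3 clusters. Its Nr3c2 level was 53.5 CPM in control and 36.4 CPM in ENZ, against 13.9 to 26.8 CPM in those 3 clusters. Fkbp5 was highest there as well, at 228 and 271 CPM, against 132 to 187 CPM in those 3. The Rsad2 cluster (51 control and 99 ENZ cells) came near these levels, with Nr3c1 at 92.5 and 72.9 CPM and Nr3c2 at 43.4 and 37.4 CPM, from 45 and 83 UMIs. These clusters were made with the 8 members left out of the variable genes, but the cells are the same, so the differences are a description.

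Nr3c2 was below no change in 5 of the 6 cancer clusters, and the difference between clusters was not tested. In the Pcdh9 cluster its ratio was 0.680 (0.622 to 0.743) and in the Top2a cluster 0.782 (0.695 to 0.880). In the Krt19 and Id3 clusters the intervals included no change, at 0.974 (0.859 to 1.105) and 1.04 (0.883 to 1.23), as they did in the small Ube2c and Mmp9 (0.838, 0.556 to 1.23) and Rsad2 clusters (0.861, 0.592 to 1.27). Fkbp5 was above no change in 6 of 6 cancer clusters, with ratios from 1.05 in the small Rsad2 cluster of interferon-induced genes to 1.49 in the Ube2c and Mmp9 cluster, of whose barcodes 38.6% passed the cancer gate, and in 5 of the 6 the interval lay above 1. Nr3c1 was higher in ENZ in the Id3 cluster, at 52.8 and 70.8 CPM (1.34, 1.201 to 1.496), and Tsc22d3 was lower there, at 26.2 and 21.8 CPM (0.829, 0.699 to 0.984), neither of them past 1.5-fold. In the Pcdh9 cluster Tsc22d3 was higher, at 21.2 and 25.5 CPM (1.2003, 1.06 to 1.36), and it lay above no change in 4 of 6 cancer clusters.

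**Figure D2:**
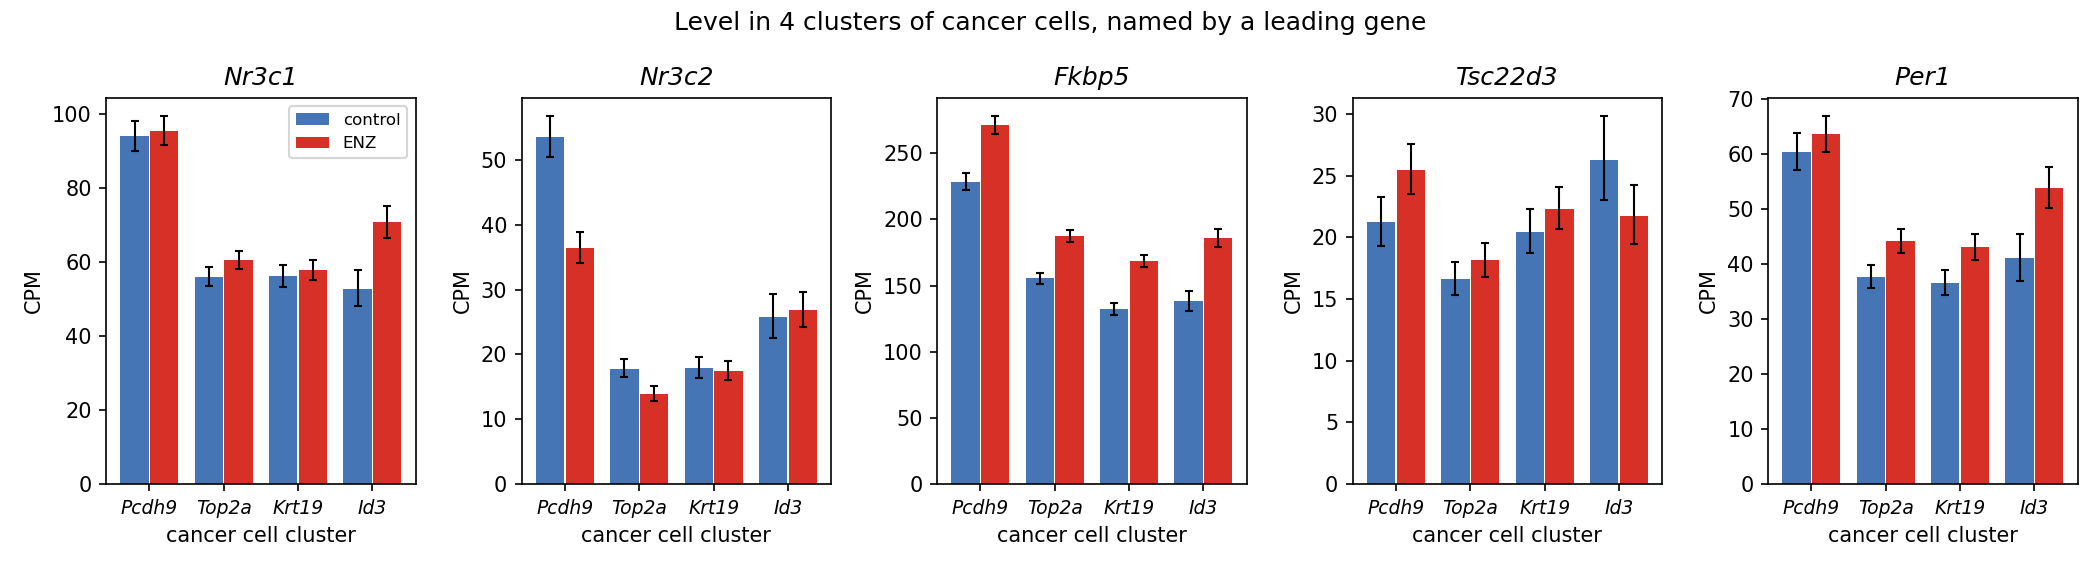
Level (CPM, bars from 0) of 5 members in the 4 largest cancer cell clusters, each named by a leading gene, in the control (blue) and ENZ (red) libraries; error bars are exact Poisson 95% intervals. The Pcdh9 cluster has the highest Nr3c1, Nr3c2, Fkbp5 and Per1 in both libraries, and its Nr3c2 is 53.5 CPM in control and 36.4 CPM in ENZ.

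Across cell classes Nr3c1 was highest in lymphocytes. T cells held 990 CPM in control and 1115 CPM in ENZ, followed by the cluster of B and plasmacytoid dendritic cells at 575 and 601 CPM. Mast cells (26 and 10 cells) held 470 and 277 CPM and NK cells 340 and 290 CPM. Neutrophils held 177 and 164 CPM and macrophages 115 and 162 CPM. Monocytes (69.4 and 99.2 CPM), dendritic cells (66.3 and 90.4 CPM), fibroblasts (79.0 and 84.5 CPM) and cancer cells formed the low end. In the control library the last 4 classes had overlapping neighbours in this order, and B with mast cells overlapped too; in ENZ, NK, mast cells, neutrophils and macrophages also overlapped with their neighbours.

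Nr3c1 was higher in the ENZ library in monocytes, at a ratio of 1.43 (1.28 to 1.59), in dendritic cells at 1.36 (1.11 to 1.68) and in T cells at 1.13 (1.08 to 1.18), and lower in NK cells at 0.853 (0.768 to 0.946). Within monocytes the ratio was 1.54 (1.37 to 1.74) in the Chil3 cluster and 0.955 (0.730 to 1.25) in the Ms4a4c cluster. The Cd209a (1.45, 0.983 to 2.12) and Clec9a dendritic cells (1.09, 0.767 to 1.54) had intervals that included no change. The Ccr7 dendritic cells did not (1.54, 1.04 to 2.27). T cell clusters ranged from 1.05 to 1.27. The direction in NK cells turned with coarser clustering, from a log2 ratio of -0.23 to 0.25 at a Leiden resolution of 0.5. The cluster named NK cells then held 1899 barcodes, against 1029 before, with T cells as its second type by markers. These log2 ratios are thus for unlike sets of cells. The 7 T cell markers summed to 439.5 CPM in control and 205 CPM in ENZ NK cells, with Trbc2 the most abundant (215 and 95.3 CPM) and Cd8a at 0 in ENZ, and their part in the NK ratio was not tested. In macrophages the ratio was 1.41 (1.28 to 1.55) over the class but 0.999 (0.901 to 1.11) within the cluster led by C1qa and Mrc1, which held 521 control and 451 ENZ cells. A second macrophage cluster, led by Mmp12, held 600 control and only 72 ENZ cells and had less Nr3c1 (60.4 and 91.7 CPM). Summed over all immune cells, Nr3c1 stood at 213 CPM in control and 334 CPM in ENZ, a ratio of 1.57 (1.52 to 1.63), while the mean log2 ratio was 0.19 over the 7 immune classes with at least 50 cells in each library and 0.07 over all 8, mast cells included. The ENZ library also held more T cells (1168 against 846) and fewer macrophages (523 against 1121) and neutrophils (518 against 1396).

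Nr3c2 was far higher in cancer cells than in immune cells. All immune cells together held 2.47 CPM in control (81 UMIs) and 1.88 CPM in ENZ (43 UMIs), against 27.1 and 22.4 CPM in cancer cells. The exceptions were the cluster of B and plasmacytoid dendritic cells, with 14 control and 3 ENZ UMIs (51.6 and 16.2 CPM), and mast cells. Mast cells had 1 UMI in each library (6.62 and 17.3 CPM), and no ratio was formed in either class. Fibroblasts held 16 and 8 UMIs (9.95 and 6.50 CPM). The control fibroblasts carried keratin UMIs (Krt8, Krt18 and Krt19) at 30.05% of the level in cancer cells and the ENZ fibroblasts at 3.09%. All 8 cancer cell markers together stood at 41.2% and 21.5% of that level. They include the genes of the cancer gate, so the selection of cancer cells could raise the level that this share is set against. Among the markers Rhox5 differed between the fibroblasts of the 2 libraries as the keratins did (276 and 33.3 CPM), whereas Rbfox2 (266 and 265 CPM) and Cacna2d1 (201 and 224 CPM) did not. Cancer RNA would bring 8.14 and 0.693 CPM of Nr3c2 by the keratin share, and 11.2 and 4.82 CPM by the share of all 8 markers, beside the 9.95 and 6.50 CPM measured.

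Fkbp5 was higher in the ENZ library in every class with enough UMIs, with the highest class ratio in macrophages. Macrophages held 33.8 CPM (30.5 to 37.5; 369 UMIs) in control and 130 CPM (119 to 141; 549 UMIs) in ENZ, a ratio of 3.83 (3.35 to 4.38). Of the 10893 genes measured in macrophages, 14 had a higher ratio, where 16.7% were called higher and 6.54% lower and the median log2 ratio was 0.19. Dendritic cells went from 23.4 to 68.3 CPM, a ratio of 2.92 (2.19 to 3.90). Monocytes went from 27.9 to 59.1 CPM, a ratio of 2.12 (1.81 to 2.49), and T cells from 77.1 to 130 CPM, a ratio of 1.69 (1.45 to 1.98). Of all measured genes, 11.2% were called higher and 6.2% lower in dendritic cells, 10.7% and 5.25% in monocytes, and 7.49% and 5.35% in T cells.

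Smaller ratios were found in fibroblasts (69.7 and 99.96 CPM, ratio 1.44, 1.10 to 1.87), neutrophils (49.0 and 69.8 CPM, 1.42, 1.09 to 1.85) and NK cells (120 and 156 CPM, 1.30, 1.11 to 1.52). In fibroblasts 8.84% of genes were called higher and 13.1% lower, in neutrophils 7.55% and 10.4%, and in NK cells 7.11% and 4.76%, and Fkbp5 was not called in these 3 classes. The B and plasmacytoid dendritic cluster had 20 control and 14 ENZ UMIs (73.8 and 75.7 CPM) and mast cells 9 and 7, too few for a ratio. All immune cells together went from 46.1 to 95.4 CPM, a ratio of 2.07 (1.94 to 2.21).

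The difference in Fkbp5 was also found within clusters. Macrophages, monocytes, dendritic cells and T cells comprised 10 clusters, of which 9 had enough UMIs, and in 9 of 9 the interval of the ratio lay above 1. The C1qa and Mrc1 macrophages went from 45.5 to 142 CPM (3.12, 2.67 to 3.65), with 16 of 9899 genes higher, and the Mmp12 macrophages from 23.0 to 57.3 CPM (2.49, 1.66 to 3.64), where 12.8% of genes were called higher and 10.4% lower. Cd209a dendritic cells stood at 19.8 and 62.7 CPM (3.17, 1.92 to 5.25) and Clec9a dendritic cells at 30.8 and 103 CPM (3.34, 2.27 to 4.95). Within clusters the macrophage ratios were thus no higher than those of these dendritic cells, and the class ratio of 3.83 lay above both macrophage clusters. The Ccr7 dendritic cells, with 9 UMIs in each library, did not qualify. Among T cells, the Themis cluster went from 96.5 to 150 CPM (1.55, 1.28 to 1.89), the Ctla4 and Il2ra cluster from 50.8 to 109 CPM (2.14, 1.48 to 3.18) and the Il23r cluster from 56.1 to 114 CPM (2.03, 1.35 to 3.10).

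Free and cancer RNA were measured beside this result. Fkbp5 made up 88.3 CPM of the UMIs in barcodes of at least 10 and under 500 UMIs in control and 133 CPM in ENZ, and the mean load of such barcodes corresponds to 0.0127 and 0.0196 Fkbp5 UMIs, against a mean of 0.329 and 1.05 per macrophage. Keratin UMIs in macrophages stood at 2.66% of the level of cancer cells in control and 5.52% in ENZ. Cancer RNA at those shares would carry 4.31 and 11.0 CPM of Fkbp5, against the 33.8 and 130 CPM measured. In neutrophils the same calculation gives 9.65 and 12.2 CPM of 49.0 and 69.8 CPM. In fibroblasts it gives 48.7 CPM of the 69.7 CPM in control and 6.18 CPM of the 99.96 CPM in ENZ, and by the share of all 8 cancer markers 66.8 and 42.96 CPM. In macrophages the share of all 8 markers gives 4.19 and 9.56 CPM. These markers include the genes of the cancer gate, on which cancer cells were selected. Immune barcodes with 5 or more UMIs of these genes were left out, so the selection lowers this share and it is no upper limit.

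**Figure D3:**
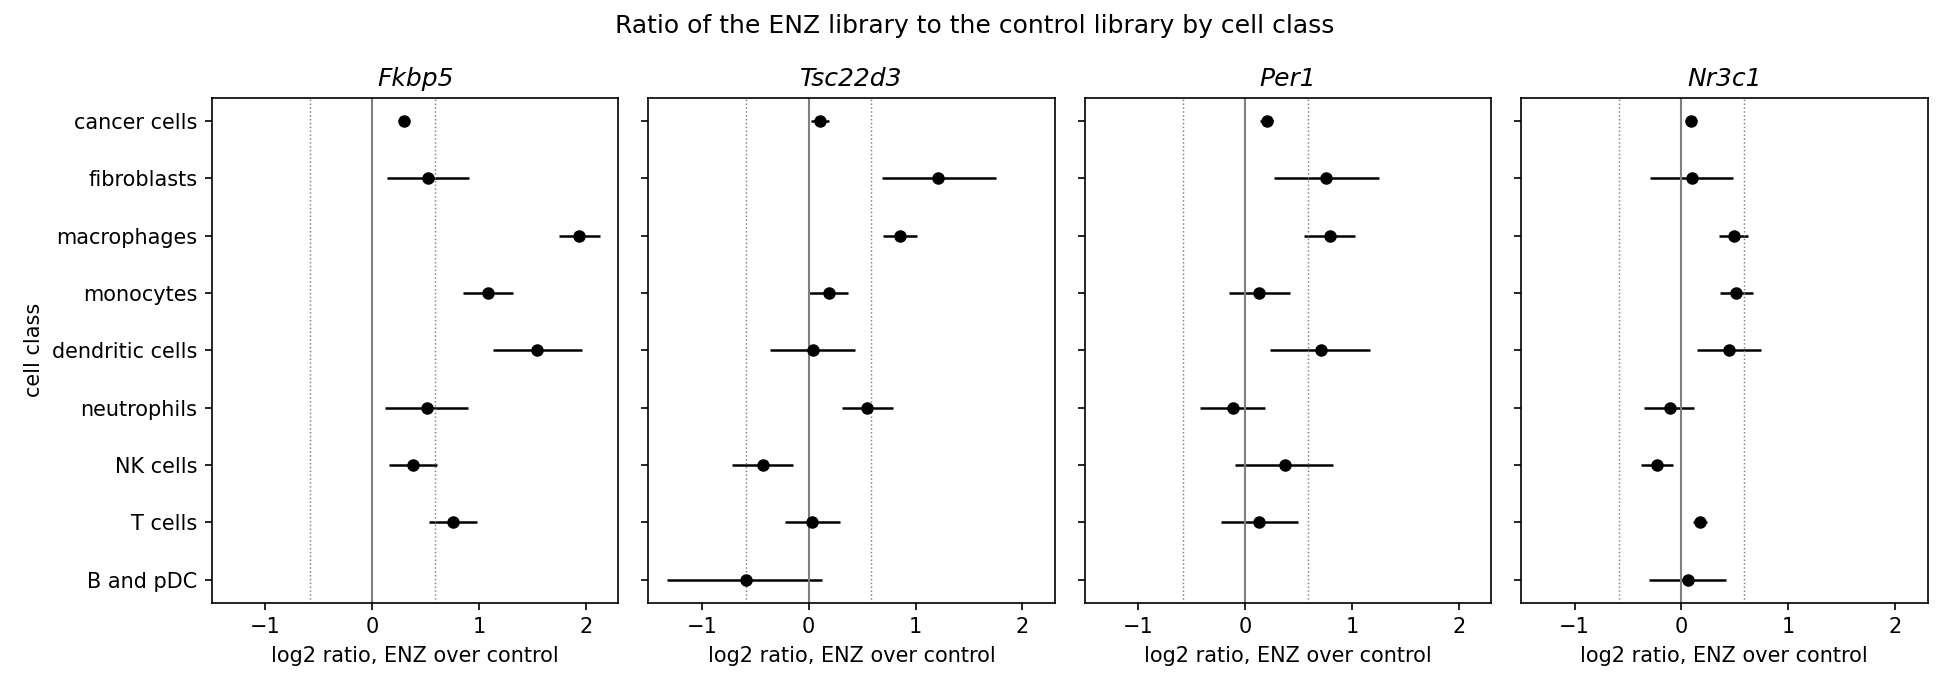
Log2 ratio of the ENZ library over the control library for Fkbp5, Tsc22d3, Per1 and Nr3c1 in 9 cell classes, with exact conditional 95% intervals for counting error; solid line, no change, and dotted lines, 1.5-fold. Fkbp5 lies above no change in all 8 classes shown, from 0.30 in cancer cells to 1.94 in macrophages, while the other 3 genes fall on both sides of no change.

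Tsc22d3 and Per1 did not follow Fkbp5 across all classes. Tsc22d3 was lowest in cancer cells in both libraries and highest in the B and plasmacytoid dendritic cluster in control (203 CPM, 55 UMIs) and in neutrophils in ENZ. In that cluster, where 13.2% of genes were called higher and 8.71% lower, the ENZ level was 135 CPM (25 UMIs) and the ratio 0.667 (0.398 to 1.09). It was higher in the ENZ library in fibroblasts (29.9 and 69.1 CPM, from 48 and 85 UMIs, ratio 2.31, 1.61 to 3.37), macrophages (71.0 and 129 CPM, ratio 1.81, 1.62 to 2.02) and neutrophils (121 and 176 CPM, ratio 1.46, 1.24 to 1.73). The fibroblasts also differed between libraries in summed markers of mural cells (805 and 416 CPM), neutrophils (231 and 37.4 CPM) and monocytes (800 and 1213 CPM). Plac8 led the monocyte sum (524 and 751 CPM). The mural sum was led by Acta2 in control (614 CPM) and Pdgfrb in ENZ (189 CPM). Sums led by single genes do not give the number of such cells. The part of other cell types in the fibroblast ratios was not tested. Within the macrophage clusters Tsc22d3 was not called, at 94.0 and 141 CPM in the C1qa and Mrc1 cluster (1.498, 1.32 to 1.70) and 49.6 and 55.7 CPM in the Mmp12 cluster (1.12, 0.763 to 1.61). Dendritic cells (1.03, 0.778 to 1.35) and T cells (1.02, 0.859 to 1.22) showed no difference beyond counting error, and NK cells were lower, at 109 and 80.9 CPM (0.743, 0.609 to 0.902).

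Per1 was highest in neutrophils, at 107 CPM in control and 98.7 CPM in ENZ, a ratio of 0.926 (0.749 to 1.14). Its ratio was 1.73 (1.47 to 2.04) in macrophages, from 34.2 to 59.2 CPM, and 1.64 (1.18 to 2.26) in dendritic cells, from 25.2 to 41.2 CPM. Fibroblasts went from 39.8 to 67.5 CPM (1.69, 1.21 to 2.39), where cancer RNA would bring 12.9 and 1.53 CPM by the keratin share and 17.7 and 10.6 CPM by that of all 8 markers. In monocytes (1.10, 0.900 to 1.34), T cells (1.10, 0.858 to 1.41) and NK cells (1.29, 0.938 to 1.77) the interval included no change. In the Mmp12 macrophages Per1 had 151 control and 10 ENZ UMIs (26.7 and 16.4 CPM), a ratio of 0.613 (0.288 to 1.16) and an interval that included no change. In the C1qa and Mrc1 cluster it went from 42.3 to 66.4 CPM (1.57, 1.30 to 1.90). The ratio of the whole class lay above that of both clusters, whose shares of the class differed between the libraries.

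Summed over the macrophage class, Fkbp5, Tsc22d3 and Per1 were all called higher. In the C1qa and Mrc1 cluster the intervals of Fkbp5, Tsc22d3 and Per1 all lay above 1. Fkbp5 and Per1 were called higher there, and Tsc22d3, at 1.498, fell just short of the limit of 1.5. In the Mmp12 cluster Fkbp5 was called higher and Tsc22d3 was not called. Per1 was called lower there on 10 ENZ UMIs, with an interval that included no change. The list of 24 glucocorticoid targets includes Fkbp5, Tsc22d3 and Per1, so its counts are not separate from the values of these members. Of the 24, 23 were measured in macrophages, and 13 were called higher, these members among them, and 0 lower. Of all genes 16.7% were called higher and 6.54% lower there. The median log2 ratio of the list was 0.72, beside 0.19 for all genes. Because most cells of the Mmp12 cluster came from the control library, the list was also read within the C1qa and Mrc1 cluster. There 10 of 23 were called higher and 0 lower, against 7.62% and 5.99% of all genes, with a median log2 ratio of 0.43 beside 0.09 for all 9899 genes. In the Mmp12 cluster 6 of 19 were called higher and 2 lower, against 12.8% and 10.4% of all genes. In fibroblasts 7 of 20 were called higher and 2 lower (8.84% and 13.1% of all genes), in NK cells 4 and 1 of 19 (7.11% and 4.76%) and in dendritic cells 3 and 1 of 19 (11.2% and 6.2%). In T cells 2 of 20 were called higher and 1 lower (7.49% and 5.35%), in neutrophils 1 and 0 of 18 (7.55% and 10.4%) and in monocytes 3 and 0 of 21 (10.7% and 5.25%), where the median log2 ratio was 0.08 beside 0.11 for all genes. The list of 14 circadian clock genes, which also holds Per1, moved in the C1qa and Mrc1 cluster as well. Of the 8 measured there, 4 were called higher and 1 lower, with a median log2 ratio of 0.60. The glucocorticoid targets named next from the C1qa and Mrc1 cluster were chosen after their values were seen. Klf9, a Krüppel-like transcription factor, went from 20.7 to 48.0 CPM (2.31, 1.81 to 2.97). Mt2, a metallothionein, went from 103 to 202 CPM (1.97, 1.76 to 2.21), while its neighbour Mt1 stood at 811 and 851 CPM (1.05, 1.0004 to 1.10). Cd163, the haemoglobin scavenger receptor of macrophages, went from 37.1 to 57.1 CPM (1.54, 1.26 to 1.88) and Zbtb16, a zinc finger factor, from 26 to 36 UMIs (2.01, 1.18 to 3.46). Anxa1, an anti-inflammatory annexin, stood at 85.7 and 83.5 CPM (0.975, 0.840 to 1.13) and Cebpd at 51.8 and 41.1 CPM (0.793, 0.645 to 0.972).

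Cancer cells did not show this for the glucocorticoid targets. Of the 23 glucocorticoid targets measured there, 1 was called higher and 4 lower, beside 2.2% and 5.44% of all genes, with a median log2 ratio of -0.10. The gene called higher was Sult1a1, a sulfotransferase with 49 and 122 UMIs (2.19, 1.56 to 3.12), followed by Zbtb16 and Klf9 (35.7 and 44.2 CPM, ratio 1.24, 1.19 to 1.29). The lowest were Il1r2, the interleukin 1 decoy receptor (9.82 and 5.24 CPM, ratio 0.533, 0.481 to 0.591), Dusp1, a MAP kinase phosphatase (404 and 218 CPM, ratio 0.539, 0.531 to 0.548), and Cebpd (109 and 62.8 CPM, ratio 0.578, 0.560 to 0.595). Dusp1 and Zfp36 (0.661) are also on the list of genes induced by tissue dissociation. In cancer cells 16 of 16 genes of that list were below no change and 10 were called lower, beside 5.44% of all genes, with Fos at 999.99 and 532 CPM, Hspa1a at 163 and 86.7 CPM and Nr4a1 nearest to no change (0.900). In immune cells 15 of 16 were below no change and 2 were called lower, beside 6.39% of all genes and a median log2 ratio of 0.12 over all genes. In the C1qa and Mrc1 macrophages 8 of 16 were below no change, 1 was called higher and 3 lower, beside 7.62% and 5.99% of all genes. The part of tissue handling in these ratios was not tested.

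**Figure D4:**
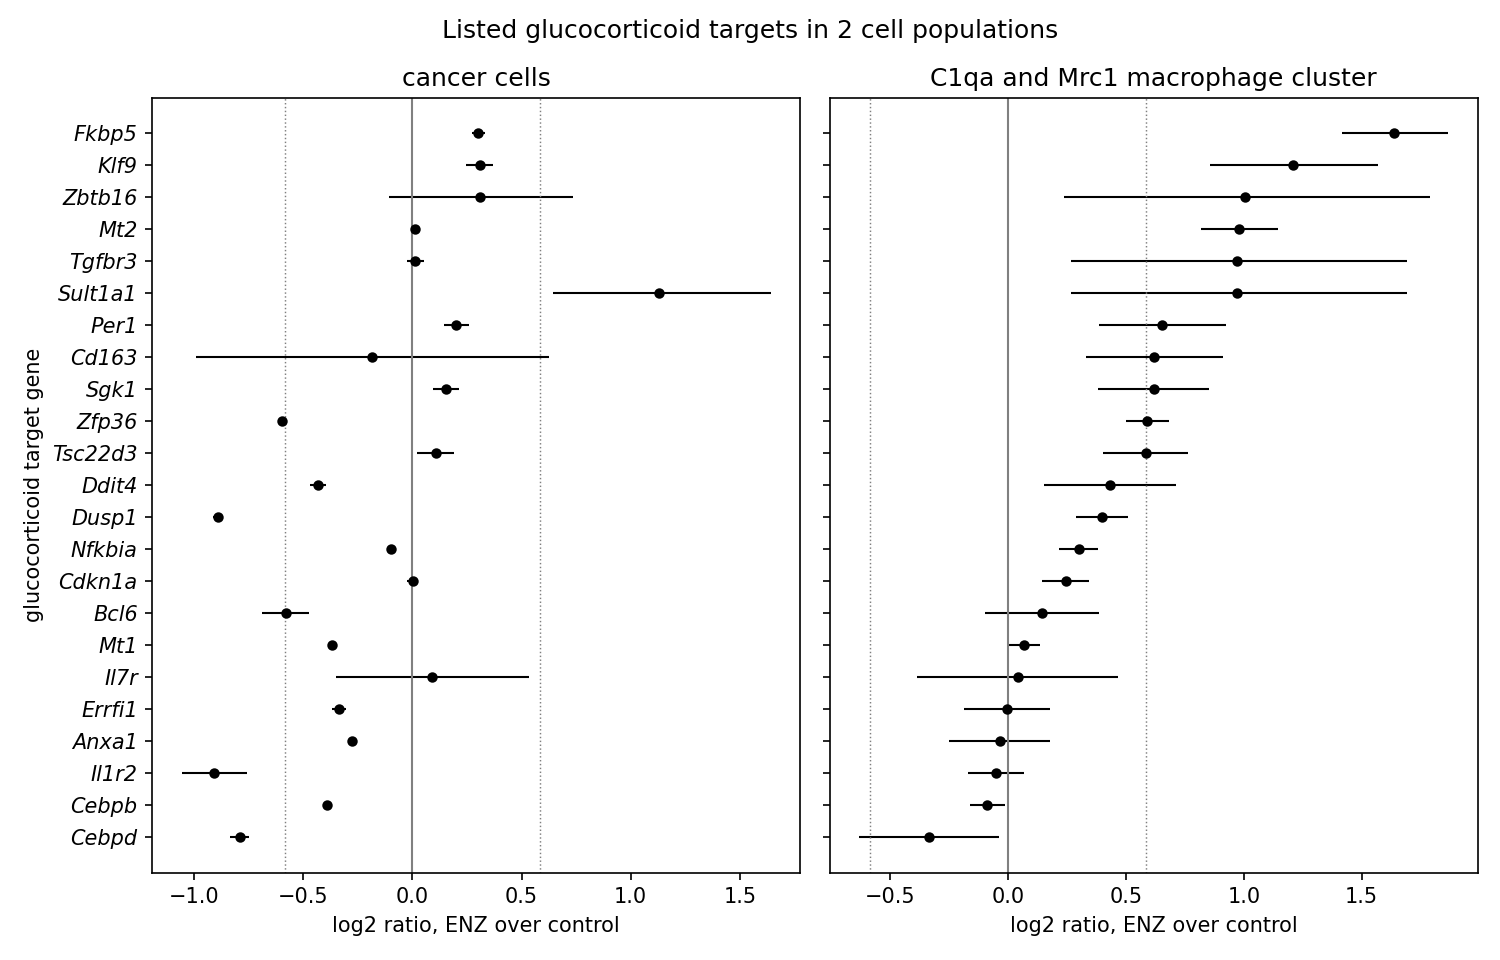
Log2 ratio of the ENZ library over the control library for the 23 measured glucocorticoid targets in cancer cells (left) and in the C1qa and Mrc1 macrophage cluster (right), sorted by the ratio in macrophages; lines are exact conditional 95% intervals, solid line no change, dotted lines 1.5-fold. In macrophages 18 of 23 lie above no change, in cancer cells 11 of 23; the horizontal scales differ between the panels.

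Of 12 chaperones that hold steroid receptors ready for hormone, 0 were called in either direction in cancer cells, beside 2.2% of all genes higher and 5.44% lower. Fkbp5 itself had the highest ratio, followed by Hspa4 (1.16) and Stip1 (1.11), and Hsp90aa1 the lowest (527 and 470 CPM, ratio 0.892, 0.881 to 0.903). Of 12 measured coregulators 0 were called, near the same shares, and 11 lay above no change, with a median log2 ratio of 0.19. Among them were Gata2 (1.19) and Med1 (1.18), and Ncoa1 was the one below (0.880, 0.815 to 0.9497). Esr1, the estrogen receptor alpha, stood at 42.4 and 33.8 CPM (0.799, 0.765 to 0.835), and Esr2, the estrogen receptor beta, was called lower on 42 and 26 UMIs (0.545, 0.321 to 0.910).

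Enzymes that make or break down steroids were sparse. Of 15 enzymes, 10 were measured in cancer cells, 0 were called higher and 1 lower, beside 2.2% and 5.44% of all genes. That gene was Hsd11b1, which regenerates active glucocorticoid inside cells, with 76 and 39 UMIs (0.761 and 0.344 CPM, ratio 0.452, 0.299 to 0.673). H6pd, which supplies its cofactor, stood at 11.9 and 15.5 CPM (1.30, 1.21 to 1.40). Srd5a1, a 5-alpha-reductase, stood at 9.71 and 12.3 CPM (1.27, 1.17 to 1.38) and Hsd17b3 had 25 and 36 UMIs (1.27, 0.740 to 2.20), while Hsd17b10 (0.807) and Hsd17b11 (0.872) were lower. Cyp17a1, the enzyme of androgen synthesis, had 0 and 1 UMIs and Hsd3b1 had 0 in both.

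Per1 also belongs to the circadian clock, and the times of tissue collection were not given in the sources used here. Of 14 clock genes in cancer cells 0 were called, beside 2.2% and 5.44% of all genes, and 10 lay above no change, with a median log2 ratio of 0.23. The highest were Nr1d1, a repressor of Arntl (5.13 and 7.63 CPM, ratio 1.49, 1.33 to 1.66), Per2 (5.79 and 8.19 CPM, ratio 1.41, 1.27 to 1.57) and Hlf (68 and 103 UMIs, ratio 1.33, 0.972 to 1.84). The lowest were Dbp (0.887, 0.781 to 1.01), Bhlhe40 (0.895, 0.870 to 0.919) and Ciart (0.991, 0.815 to 1.21). In immune cells, where 9.45% of genes were called higher and 6.39% lower, 6 of 14 were called higher, among them Nr1d2 (8.80 and 17.5 CPM, ratio 1.99, 1.71 to 2.33), and 2 lower, Dbp (2.40 and 1.09 CPM, ratio 0.455, 0.278 to 0.721) and Ciart (4.90 and 2.58 CPM, ratio 0.526, 0.384 to 0.714). These 2 were named after their values were seen, as was Nr1d2. Sums over all immune classes mix classes whose shares differed between the libraries. Within macrophages 5 of 10 clock genes were called higher and 2 lower, and within dendritic cells 4 and 0 of 5. Monocytes and T cells each had 3 and 0 of 8. NK cells had 1 and 0 of 7, and neutrophils 0 and 2 of 6. The shares of all genes called in these classes are given above. Dbp had too few UMIs for a ratio in any single immune class. The part of collection time in these ratios was not tested.

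The genes most like each member were read from 18 sums of class and library, among 6718 genes, as a description in which the points share libraries and class composition. For Nr3c1 these were Dgka (Pearson r = 0.968), Pik3ca, Elf1, Cep120 and Nfatc3, and for Nr3c2 Tcf3 (r = 0.915), Ddx27, Scamp3, Mat2a and Btrc. For Fkbp5 they were Chd4 (r = 0.887), Snrnp70, Ecpas, Cbx5 and Hist1h1e, and for Tsc22d3 Rsrc2 (r = 0.878), Trim30a, Txnip, Klf2 and Susd6. For Per1 they were Trim56 (r = 0.874), Nktr, Steap4 and Vti1b.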

How the data were processed

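A pair of 10x Genomics libraries was analysed, 1 per condition, grouped by the treatment in the labels. The deposited files hold UMI counts, not normalized, for each barcode and gene (32285 genes; 170830346 control and 162030149 ENZ UMIs in all). The submitters' processing notes name Cell Ranger 2.1.1 and mm10, whereas the matrix header names Cell Ranger 7.2.0; the annotation and whether introns were counted are not given in the sources used here, and counting them would raise genes with long introns.

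Counts were log-normalized and clustered in scanpy 1.11.5 (2000 variable genes without the 8 members, 30 components, 15 neighbours, Leiden resolution 1; leidenalg 0.10.2), giving 25 clusters named by at least 3 markers. Of 22524 barcodes, 19452 entered a class and 3072 none; 31 control and 11 ENZ immune barcodes with 5 or more cancer gene UMIs were left out. One cluster held markers of both B and plasmacytoid dendritic cells and was kept as 1 class. Doublets were kept; Scrublet's own threshold marked 0 barcodes in control, so the ENZ threshold was applied to both in the alternative without doublets (295 and 292 barcodes).

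Levels are CPM of UMIs summed over a class. Ratios have exact conditional binomial intervals and levels exact Poisson intervals, at 95%. Ratios were formed for genes with at least 50 UMIs over both libraries. On macrophage counts for 10893 genes simulated by Poisson draws, 97.5% of the intervals of 200 changed genes held the true ratio. The draws follow the counting model of the intervals, so this checks the calculation and not variation between cells or mice. UMIs remove PCR copies, and intervals cover counting error only. Named genes are the members, the 3 highest and 3 lowest ratios of each list in cancer cells, the 5 genes most like each member and those stated as chosen later; a few of these are not reported here. The members and lists were chosen with earlier results of these data known. RefSeq windows were searched on both strands for the motifs given in the text and for the core of the cAMP response element and a TATA box, which occurred in 3 and 2 of 10 windows, against 17.8% and 12.4% of all windows. Of the gene identifiers, 32235 of 32285 were in GENCODE M21.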

Additional observations from a re-analysis of the deposited data

Results flagged for a closer look

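Nr3c1 differed in direction between immune classes under the same contrast: its ratio of ENZ over control was 1.43 in monocytes and 0.853 in NK cells, with intervals on opposite sides of 1. Within the monocytes the Ms4a4c cluster stood at 0.955 (0.730 to 1.25). The difference between the classes was not tested, since each condition had 1 library, and the opposite directions were not found at a Leiden resolution of 0.5, where the log2 ratio in NK cells turned from -0.23 to 0.25. The cluster named NK cells held 1899 barcodes at that resolution, against 1029 at a resolution of 1. Its ratios at the different resolutions are thus for unlike sets of cells. The summed T cell markers of the NK cells stood at 439.5 CPM in control and 205 CPM in ENZ.

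Tsc22d3 likewise stood at a ratio of 2.31 in fibroblasts and 0.743 in NK cells. This difference was not tested either. The fibroblast value rests on 48 control and 85 ENZ UMIs, and the control fibroblasts carried keratin UMIs at 30.05% of the level in cancer cells against 3.09% in the ENZ fibroblasts, while all 8 cancer cell markers together stood at 41.2% and 21.5%.

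Barcodes of clusters without a cell type name entered no comparison where they held fewer than 5 UMIs of the cancer genes. These 1133 control and 764 ENZ barcodes, with shallow medians of 1575 and 1704 UMIs, held 77 and 137 Fkbp5 UMIs (36.8 and 92.9 CPM), a ratio of 2.52 (1.89 to 3.38), while their Per1 ratio was 0.996 and their Tsc22d3 ratio 0.848.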

How the results depend on the processing

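No paired analysis was possible because the libraries carry no replicate number and no test was run, and the design has no replicate to leave out. Intervals cover counting error at these depths, and with 1 mouse per condition the variation between mice was not measured. In cancer cells the log2 ratios of Nr3c1, Nr3c2, Fkbp5, Tsc22d3 and Per1 kept their sign under 11 of 11 alternatives each. Fkbp5 moved from 0.30 to 0.33 with cancer cells taken from clusters, and Per1 from 0.20 to 0.13 as a mean over cells. In immune cells Fkbp5 moved from 1.05 to 0.92 without the Mmp12 macrophage cluster, 0.93 with median-of-ratios scaling and 0.89 with classes weighted equally. Nr3c1 moved from 0.65 to 0.60 at a minimum of 2000 UMIs, 0.59 with immune cells taken by Ptprc, 0.48 without the Mmp12 cluster, 0.54 with median-of-ratios scaling and 0.19 with equal weights. Tsc22d3 moved from 0.17 to 0.049 as a mean over cells and 0.055 with median-of-ratios scaling. Per1, whose interval included no change, moved from 0.11 to -0.11 as a mean over cells and 0.42 with equal weights. The alternatives without the Mmp12 cluster and with equal weights were chosen after seeing the data; equal weights cover the 7 classes with at least 50 cells in each library and gave no value for Nr3c2. With mast cells included (8 classes, also added later) Nr3c1 stood at 0.073, Fkbp5 at 0.91 and Tsc22d3 at -0.022, and Per1 had no value. The scaling alternative shifted all immune log2 ratios by 0.12. At a Leiden resolution of 0.5 the Nr3c1 ratio changed sign in macrophages (log2 -0.01 from 0.49), NK cells (0.25 from -0.23) and the class of B and plasmacytoid dendritic cells (-0.38 from 0.06). These classes did not hold the same barcodes at both resolutions. The last was a cluster named B cells of 93 barcodes at 0.5, against 141 barcodes at 1. The cluster named NK cells held 1899 barcodes at 0.5, against 1029 at 1, with T cells as its second type by markers. Tsc22d3 in dendritic (-0.03) and T cells (-0.18) and Per1 in T cells (-0.04) crossed no change within their intervals. The cause of these moves was not tested.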

Other observations

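The 31 control and 11 ENZ immune barcodes that also held 5 or more UMIs of the cancer genes entered no comparison. They held 83 and 58 Fkbp5 UMIs (99.6 and 189 CPM), 13 and 11 Nr3c2 UMIs (15.6 and 35.8 CPM) and no Pbsn or Tmprss2 UMI. Their Nr3c2 lay between the levels of immune and cancer cells in control. In ENZ it lay above the 22.4 CPM of cancer cells, with an interval of 17.9 to 64.0 CPM that included this level.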
